A study of Mus musculus with 6 samples.

Results

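The genes examined here encode G protein-coupled receptors for neurotransmitters, peptides, nucleotides and lipid mediators, with the neurotensin receptor gene Ntsr2 among them. The list named 45 genes, chosen by symbol, and a probe set counted as a member when the platform annotation gave it 1 of these symbols, current or former. The annotation used here paired 60 probe sets with 35 of the 45 genes, out of 45037 non-control probe sets and 18193 named genes on the array. The other 10 genes, which are Ednra, Adra1a, Adra1d, Adra2a, Adrb1, Adora1, Adora2a, Adora2b, Htr2a and Chrm2, were not analysed here, and the adenosine receptors are all among them. Beside transmitter and peptide receptors, the list holds the cannabinoid receptor gene Cnr1, the lysophospholipid receptor genes Lpar1, S1pr1 and S1pr3, and the thrombin receptor gene F2r.

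RNA was measured on 6 single-colour arrays, 3 of cerebellar and 3 of neocortical mouse astrocytes, and the regions are what the design sets against each other. For the neocortical arrays the labels give the strain as ICR, and for the cerebellar arrays they give no strain, so an effect of strain cannot be told apart from one of region. The sources used here do not give age, sex or whether the cells were cultured or freshly isolated. Nothing says that the 3 samples of a region came from separate animals or preparations, so a p-value here reflects the scatter of these particular samples, which may be technical.

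Astrocytes respond to neurotransmitters mainly through receptors of this class. A receptor that couples to Gq activates phospholipase C and releases calcium from stores, one that couples to Gs raises cyclic AMP through adenylyl cyclase, and one that couples to Gi lowers it. Calcium signals evoked by noradrenaline, nucleotides, endothelin and peptides are among the best studied responses of astrocytes, and Ntsr2 is widely used as a gene typical of these cells.

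Signal is given in arbitrary units after quantile normalization of the deposited intensities. Values under a floor of 62.2 carry no order on the log2 scale. On the deposited scale, 24 bacterial control probe sets read from 2.9 to 269.2 units, with a 95th percentile of 116.2. They were left out of the normalization, so they are a rough gauge of the dim range. The brightest probe set stood for its gene. A gene was tested when its mean log2 value over the 6 arrays reached the 40th percentile of all probe sets. Values under the floor were first raised to it, and that percentile was equivalent to about 169 units. Every difference is a log2 value of cerebellar minus neocortical signal, fitted with limma, with Benjamini-Hochberg adjustment over all 27022 probe sets tested and a threshold of 0.05. In bulk samples of this kind, fewer cells of a type and less RNA per cell cannot be told apart.

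All 12 astrocyte markers were bright enough to be tested. Their summed signal ran from 166185 to 237890 in cerebellar and from 232551 to 279476 in neocortical astrocytes. Markers of other cells were present too. Summed microglia markers (10 genes) ran from 6772 to 35778 in cerebellar and from 11341 to 31475 in neocortical astrocytes, and summed fibroblast and meningeal markers (10 genes) from 55570 to 234940 in cerebellar and from 60577 to 99447 in neocortical astrocytes. The Gapdh controls, whose 3′ over 5′ ratio tracks RNA integrity, gave 0.996 ± 0.0795 in cerebellar against 0.873 ± 0.00922 in neocortical RNA (SD, n = 3 each, two-sided exact permutation p = 0.1, the smallest that 3 against 3 allow). The part of this ratio in the results below was not tested.

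Promoters are shown for the 3 receptor genes on which the comparison turns. They are Ntsr2, which was lower in cerebellar astrocytes, S1pr3, which was higher, and Adcyap1r1, which passed under 6 of 16 alternatives and not in the planned fit. Each runs 5′ to 3′ from 250 bases before to 50 bases after the annotated start, from RefSeq on build GRCm38.p6. The coordinates are chr12:16653220-16653519 for Ntsr2, chr13:51408368-51408667 for S1pr3 and chr6:55451728-55452027 for Adcyap1r1, all on the plus strand. Capitals mark matches on either strand to 6 short motifs of promoters, which are spelled out after the sequences. The CCAAT box and NFI half-site letters can overlap.
Ntsr2: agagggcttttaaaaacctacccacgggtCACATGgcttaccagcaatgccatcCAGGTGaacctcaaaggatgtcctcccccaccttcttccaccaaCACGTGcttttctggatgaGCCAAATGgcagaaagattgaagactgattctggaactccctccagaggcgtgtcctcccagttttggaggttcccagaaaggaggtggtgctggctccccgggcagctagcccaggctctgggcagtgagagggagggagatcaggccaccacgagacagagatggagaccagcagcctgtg
S1pr3: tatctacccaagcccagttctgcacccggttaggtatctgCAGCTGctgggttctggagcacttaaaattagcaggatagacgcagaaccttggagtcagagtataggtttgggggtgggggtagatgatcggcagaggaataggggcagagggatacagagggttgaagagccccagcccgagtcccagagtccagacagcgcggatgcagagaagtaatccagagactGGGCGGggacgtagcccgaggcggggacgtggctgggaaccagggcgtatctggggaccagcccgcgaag
Adcyap1r1: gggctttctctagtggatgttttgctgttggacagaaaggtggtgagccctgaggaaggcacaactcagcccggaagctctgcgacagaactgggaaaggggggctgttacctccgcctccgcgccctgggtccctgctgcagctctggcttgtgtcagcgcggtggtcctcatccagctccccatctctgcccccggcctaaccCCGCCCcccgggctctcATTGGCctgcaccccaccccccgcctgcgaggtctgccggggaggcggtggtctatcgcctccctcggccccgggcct

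The Ntsr2 window held 4 E-box matches and 1 NFI half-site, and no TATA, CCAAT or GC box. S1pr3 had 1 E-box and 1 GC box. In Adcyap1r1 there were 1 CCAAT box, 1 GC box and 1 NFI half-site and no E-box. The share of the 32851 promoters of this length in the table that held each motif on either strand was as follows. The E-box, spelled CANNTG with any base at each N, was found in 72.3% of them. The NFI half-site, for which the letters TTGGC were searched, was found in 46.7% of these windows. The CCAAT box, searched by the letters of its name, occurred in 37.4% of the promoters in the table. The GC box was searched as GGGCGG, and 35.7% of the promoters contained at least a single match. The half-site of the cAMP response element was searched as TGACG and was present in 20.8% of promoters. The TATA box was searched as TATAAA and was the least frequent motif, at 13.6% of promoters. The windows had 5 CpG dinucleotides for Ntsr2, 14 for S1pr3 and 17 for Adcyap1r1, against a median of 7 over all promoters. The 14 tested receptor genes with a promoter in the table had a median of 14 over 24 promoters, and the 14 genes below the filter had 11 over 19. These counts describe the letters alone and were not tied to any measurement of binding.

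Of the 35 receptors, 18 were too faint to compare, and few of the others differed between the regions. Of the 35 receptor genes with a probe set, 17 were bright enough to be tested, 1 was higher in cerebellar astrocytes (S1pr3), 1 was lower (Ntsr2) and 15 did not pass. The 2 calls are 11.8% of the genes tested, against 12.8% of all 12615 genes tested, so the share of regional calls among these receptors was near that of the array as a whole. By direction, the array as a whole had 5.37% of genes higher and 7.39% of genes lower in cerebellar astrocytes. The median log2 difference of the 17 genes was -0.13, against -0.01 for all genes tested. Of the 17, 10 were negative, and of all 12615 genes tested, 6538 were. The groups did not overlap for 7 of the 17, against 34.4% of all genes tested. Of the tested genes, Adra2c and Hrh1 reached the filter through their neocortical signal, with cerebellar means on the log2 scale under the filter value. With the array number as a block, Adcyap1r1 passed as well, so 2 receptors were lower and 1 was higher, against 14.8% of all genes tested that passed in that fit, 6.12% of them higher and 8.64% lower.

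**Figure D1:**
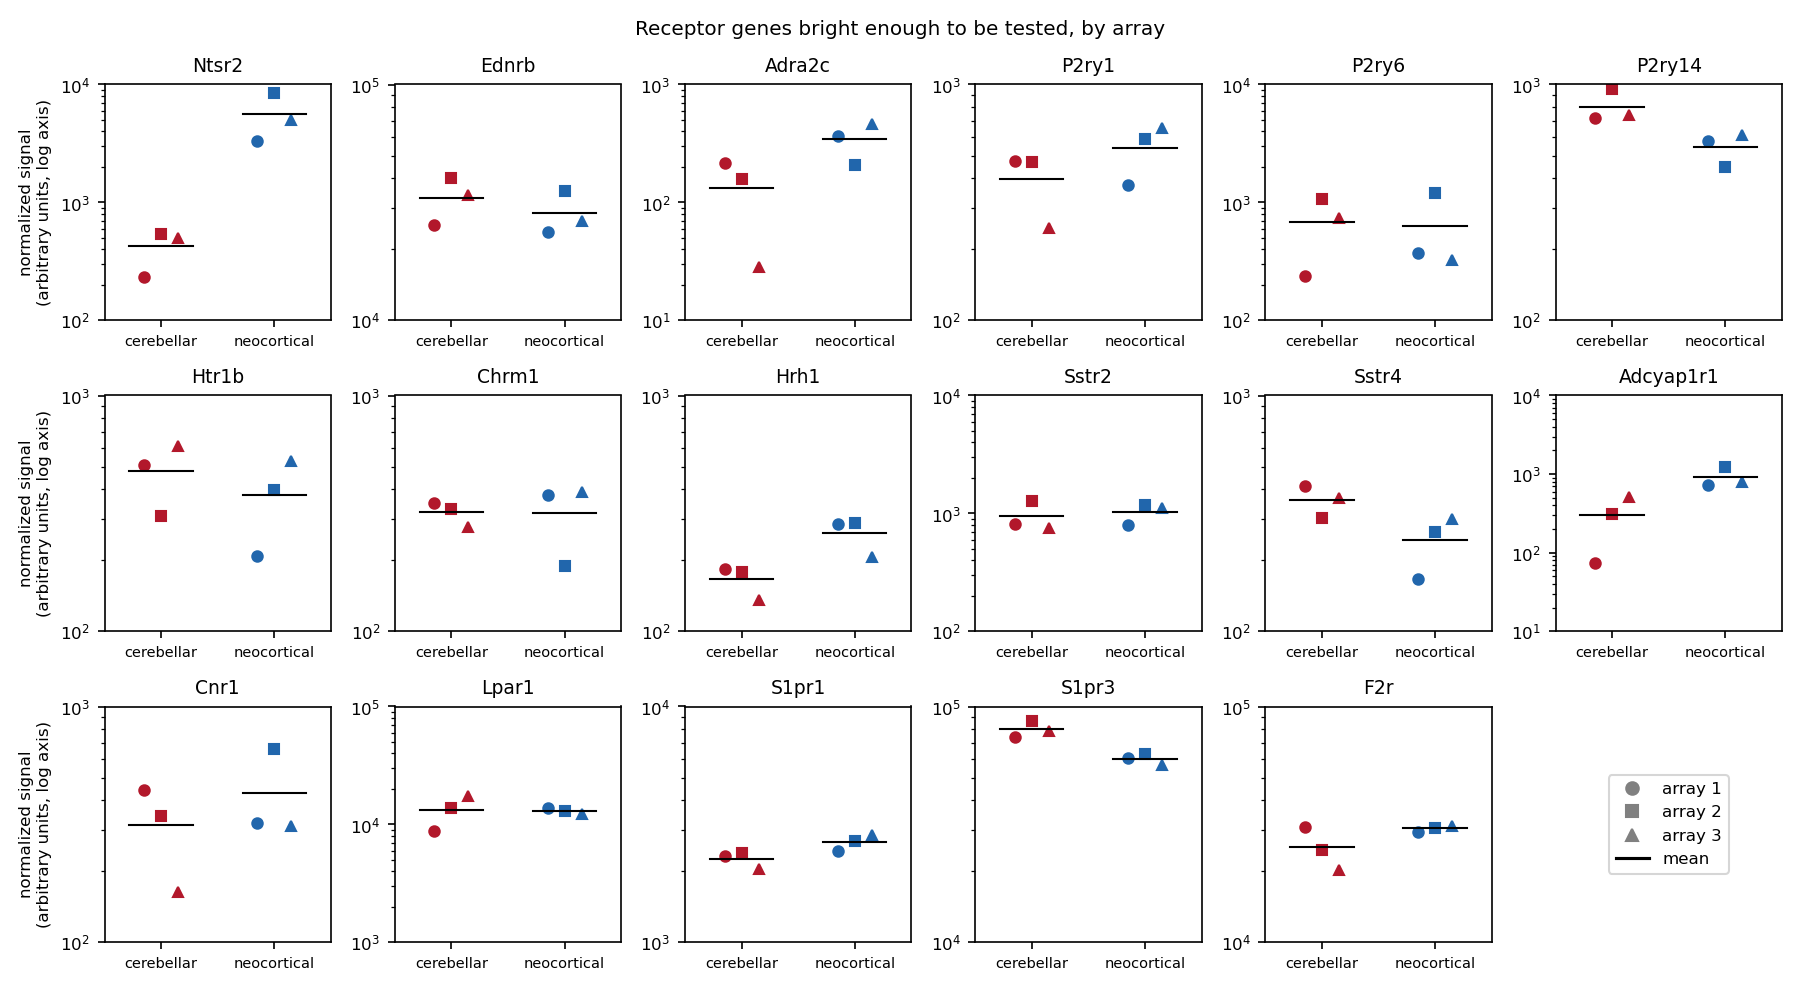
Normalized signal (arbitrary units, log axis) of the 17 receptor genes bright enough to be tested, with a panel per gene. Points are single arrays, shaped by array number and coloured by region, with cerebellar astrocytes on the left, and bars are means. Ntsr2 shows the widest gap, with 235 to 545 units in cerebellar and 3296 to 8420.1 units in neocortical astrocytes.

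Ntsr2 encodes neurotensin receptor 2, which binds neurotensin with lower affinity than the product of Ntsr1. Its signal was 235, 545 and 499.7 units on the 3 cerebellar arrays, against 3296, 8420.1 and 5041 units on the neocortical arrays. The highest cerebellar value was thus far under the lowest neocortical one. The log2 difference was -3.70 ± 0.387 (SE, limma adjusted p = 0.0007), a 13-fold lower signal, with a 95% confidence interval from -4.57 to -2.82. Cerebellar replicate 1 lay within the range of the bacterial controls, and the cerebellar mean of 426.8 ± 167 (SD, n = 3) lay above it. Adjusted p ran from 1.9e-05 to 0.0358 over the 16 alternatives that gave a value, and the log2 difference from -4.02 to -3.31. Ntsr2 rests on a single probe set, whose suffix marks probes shared by several transcripts of the gene.

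Replicates of Ntsr2 differed widely within each region, and in the same order as the summed astrocyte markers. Summed signal of the 12 markers was 166185, 237890 and 235319 units on cerebellar arrays 1 to 3 and 232551, 279476 and 260425 units on neocortical arrays 1 to 3. Both measures were lowest on the array numbered 1 and highest on the array numbered 2 of each region. The cerebellar sums of arrays 2 and 3 lay close together. Among single markers, Slc1a2, Aldoc and Sox9 ran in the cerebellar order of Ntsr2 and the others did not. Gfap, Aqp4, Gja1, Slc1a3, S100b and Glul were highest on cerebellar array 3. Of the 17 tested receptors, Ntsr2 and Ednrb followed this order in both regions. With 3 arrays a region few orders are possible, and how many of all genes follow it was not counted. The cerebellar and neocortical sums overlapped. Of the 12 markers taken singly, 9 did not overlap between the regions, against 34.4% of all genes tested. The median log2 difference of the 12 markers was -0.50. Of these, 5 fell (Acsbg1, Glul, Slc1a3, Aldoc and Fgfr3), 1 rose (Aqp4) and 6 were not past the threshold. Over all genes tested, 12.8% were called. Slc1a3 was lower with 1 of its 6 tested probe sets, whose differences ran from -0.80 to 0.47, and Fgfr3 with 1 of 2. All tested probe sets of Acsbg1, Glul, Aldoc and Aqp4 passed in the direction of the gene. With the array number as a block 7 fell, Gfap (adjusted p = 0.00406 against 0.0649 without it) and Slc1a2 (0.0406 against 0.317) being added. That fit called 14.8% of all genes tested. The part of the astrocyte markers in the Ntsr2 difference was not tested.

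Ntsr1, the high-affinity neurotensin receptor gene, was too faint to be tested. It read 28.6, 56.4 and 51.9 units in cerebellar and 65.7, 40.05 and 21.1 units in neocortical astrocytes, all within the range of the bacterial controls. The precursor gene of the ligand, Nts, was equally faint, at 68.3 ± 58.9 units in cerebellar and 44.8 ± 55.9 units in neocortical astrocytes (SD, n = 3 each). Sort1 encodes sortilin, a sorting receptor that also binds neurotensin and is not a G protein-coupled receptor. It fell to 3895 ± 107 units in cerebellar cells, against 6104 ± 299 units in neocortical cells (SD, n = 3 each), with a log2 difference of -0.65 ± 0.0945 (SE, limma adjusted p = 0.0035). All 3 probe sets of Sort1 were tested, and 2 were lower past the threshold.

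Ednrb, the endothelin B receptor gene that astrocytes are known to express, was bright in both regions. It read 25334, 40136 and 33990.3 units in cerebellar and 23618, 35455 and 26416 units in neocortical astrocytes. The groups overlapped, and the order of arrays by number was the same in each region. The log2 difference was 0.21 ± 0.186 (SE, adjusted p = 0.511), with a 95% interval from -0.21 to 0.64. The further 2 probe sets gave 0.48 and 0.36 and did not pass either. Edn1 encodes endothelin 1, a ligand of this receptor. It rose to 976.5 ± 177 units in cerebellar, against 373 ± 167 units in neocortical astrocytes (SD, n = 3 each), a 2.83-fold difference (limma adjusted p = 0.0339). The call of Edn1 was lost under 6 of 16 alternatives, among them without cerebellar replicate 1 (0.0751), 2 (0.0594) or 3 (0.0794) or neocortical replicate 3 (0.0605), with adjusted p up to 0.173 when no filter was used.

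**Figure D2:**
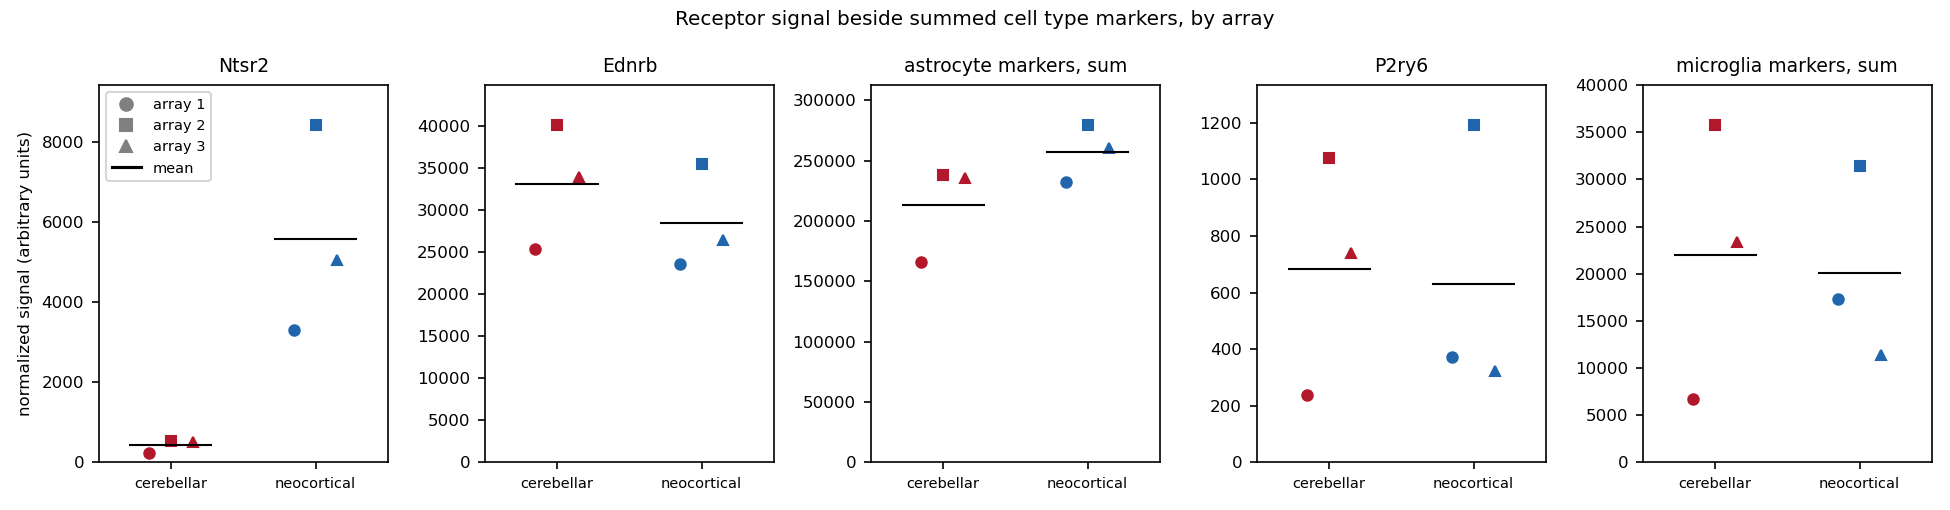
Normalized signal (arbitrary units, linear axes from 0) of Ntsr2, Ednrb and P2ry6 by array, beside the summed signal of 12 astrocyte and 10 microglia markers. Points are single arrays with cerebellar astrocytes on the left, and bars are means. Ntsr2 and Ednrb run in the order of the astrocyte sums within each region, and P2ry6 in that of the microglia sums.

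Of the P2Y receptors, which bind extracellular nucleotides, 3 of 4 were bright enough to be tested and none passed. P2ry14, a receptor for UDP-glucose, read 722, 953 and 743 units in cerebellar and 577, 446 and 610.4 units in neocortical astrocytes. The groups did not overlap, yet the difference of 0.57 ± 0.21 (SE) had an adjusted p of 0.125 in the limma fit. P2ry1, an ADP receptor that evokes calcium signals in astrocytes, read 475, 471.5 and 246 units against 374, 589 and 654 units in neocortical cells, and the groups overlapped. P2ry2, a receptor for ATP and UTP, lay below the filter with values from 14.2 to 201 units in cerebellar and from 30.2 to 218 units in neocortical astrocytes.

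P2ry6, a UDP receptor also known from microglia, varied more within a region than between the regions. Its signal was 238, 1074 and 741 units in cerebellar and 373, 1192 and 323 units in neocortical astrocytes. The highest and the lowest array of each region were thus several-fold apart. Summed microglia markers were 6772, 35778 and 23335 units on cerebellar arrays 1 to 3 and 17374, 31475 and 11341 units on neocortical arrays 1 to 3, in the same order within each region. S1pr3 ran in that order as well, and the summed oligodendrocyte lineage and choroid plexus markers did too. Few orders are possible with 3 arrays a region, and the share of all genes in this order was not counted. The log2 difference of P2ry6 was 0.13 ± 0.617 (SE, adjusted p = 0.921) and turned negative when any of 4 single arrays was left out. The part of these other cells in the values of P2ry6 and S1pr3 was not tested.

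Adcyap1r1 encodes the PACAP receptor, which couples to Gs. Its brightest probe set read 75.2, 313 and 515 units in cerebellar and 738, 1229 and 784 units in neocortical astrocytes. Every cerebellar value was under every neocortical one, and the cerebellar arrays differed several-fold among themselves. The log2 difference of -1.96 ± 0.61 (SE, 95% interval -3.34 to -0.58) did not pass in the limma fit without a block (adjusted p = 0.0761). With the array number as a block the same difference had an SE of 0.447 and passed (adjusted p = 0.0269). Over 16 alternatives it passed under 6, with adjusted p from 0.017 to 0.295 and a difference that stayed negative. Leaving out cerebellar replicate 1 (0.0497) or 3 (0.0346) was enough for it to pass. The dimmer probe set that was tested read 359, 109.7 and 191 units in cerebellar and 437, 339 and 349 units in neocortical astrocytes. Its groups overlapped, its highest cerebellar array was the lowest one of the brightest probe set, and its difference of -0.93 ± 0.427 (SE) did not pass without the block (adjusted p = 0.209) or with it (0.135). Another probe set lay below the filter with 58.0, 52.0 and 7.47 units in cerebellar and 79.8, 161 and 126 units in neocortical astrocytes. Summed neuron markers (12 genes), of which 6 were too faint to be tested, were 25059, 21939 and 15723 units on cerebellar arrays 1 to 3 and 22636 to 24386 units on neocortical arrays. Stmn2 made up much of these sums, with 11036.5 ± 6099 units in cerebellar and 9284 ± 2803 units in neocortical astrocytes (SD, n = 3 each). Of the 6 neuron markers tested, Gad1 and Syt1 were lower in cerebellar astrocytes, with log2 differences of -1.83 and -0.67 (limma adjusted p = 0.0233 and 0.0227), and 4 did not pass. With the array number as a block Map2 was lower too (adjusted p = 0.0167). The part of neurons in the Adcyap1r1 values was not tested.

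Vipr1 and Vipr2, receptors for VIP and PACAP, lay below the filter. Vipr1 read 13.3 to 24.9 units in cerebellar and 7.1 to 80.4 units in neocortical astrocytes, and Vipr2 read 6.39 to 186 and 53.2 to 176 units. The peptide precursor genes were dim as well, Vip averaging 67.2 units in cerebellar and 65.7 units in neocortical astrocytes and Adcyap1 averaging 207.5 units in cerebellar and 96.3 units in neocortical astrocytes. No regional difference was measurable for either ligand, since neither was tested.

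S1pr3 encodes a receptor for sphingosine 1-phosphate that couples to several G proteins. Its brightest probe set read 74388, 86958 and 78968 units in cerebellar and 60265, 62637 and 56422 units in neocortical astrocytes. Every cerebellar value was above every neocortical one. The difference was small and precise, at 0.42 ± 0.08 (SE, limma adjusted p = 0.0122), or 1.34-fold higher. The other 2 probe sets gave 0.74 ± 0.117 and 0.55 ± 0.122 (SE) and passed too, the brighter of them with 16254 to 21002 units in cerebellar against 10601 to 12620.5 units in neocortical astrocytes. All 3 probe sets were thus higher with no overlap, where 4.88% of the 27022 probe sets tested were higher, 5.72% were lower and 32.2% did not overlap. The brightest one lay at the 99.8th percentile of all probe sets, and whether it was near saturation is not given in the sources used here. Its call was lost when arrays were scaled by their median (adjusted p = 0.0841) and without neocortical replicate 1 (0.0514) or 3 (0.0646). The call was also lost under the other settings given in the closing section. Over all alternatives the S1pr3 difference ran from 0.36 to 0.74. The brightest probe set carries a suffix. The value of 0.74 belongs to the next brightest, which stood for the gene when suffixed probe sets were left out.

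Fibroblasts and mural cells also carry sphingosine 1-phosphate receptors. Summed fibroblast and meningeal markers were 55570, 134375 and 234940 units on cerebellar arrays 1 to 3 and 77188, 60577 and 99447 units on neocortical arrays 1 to 3. Of the 10 markers, all of them tested, 8 had a positive difference, with a median of 0.63. Of all 12615 genes tested, 6075 had a positive difference. Twist1 was called higher in cerebellar astrocytes, and with the array number as a block Col1a1 and Foxc1 were higher too. Summed mural markers (8 genes) ran from 128043 to 157702 units in cerebellar and from 168379 to 193964 units in neocortical astrocytes, with Acta2 and Tagln making up most of them. Of the 5 mural markers tested, Acta2 was lower and 4 did not pass, and with the block Notch3 was lower too. The differences of Pdgfrb and Rgs5 were 0.24 and 0.11. The part of fibroblasts and mural cells in the S1pr3 difference was not tested.

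**Figure D3:**
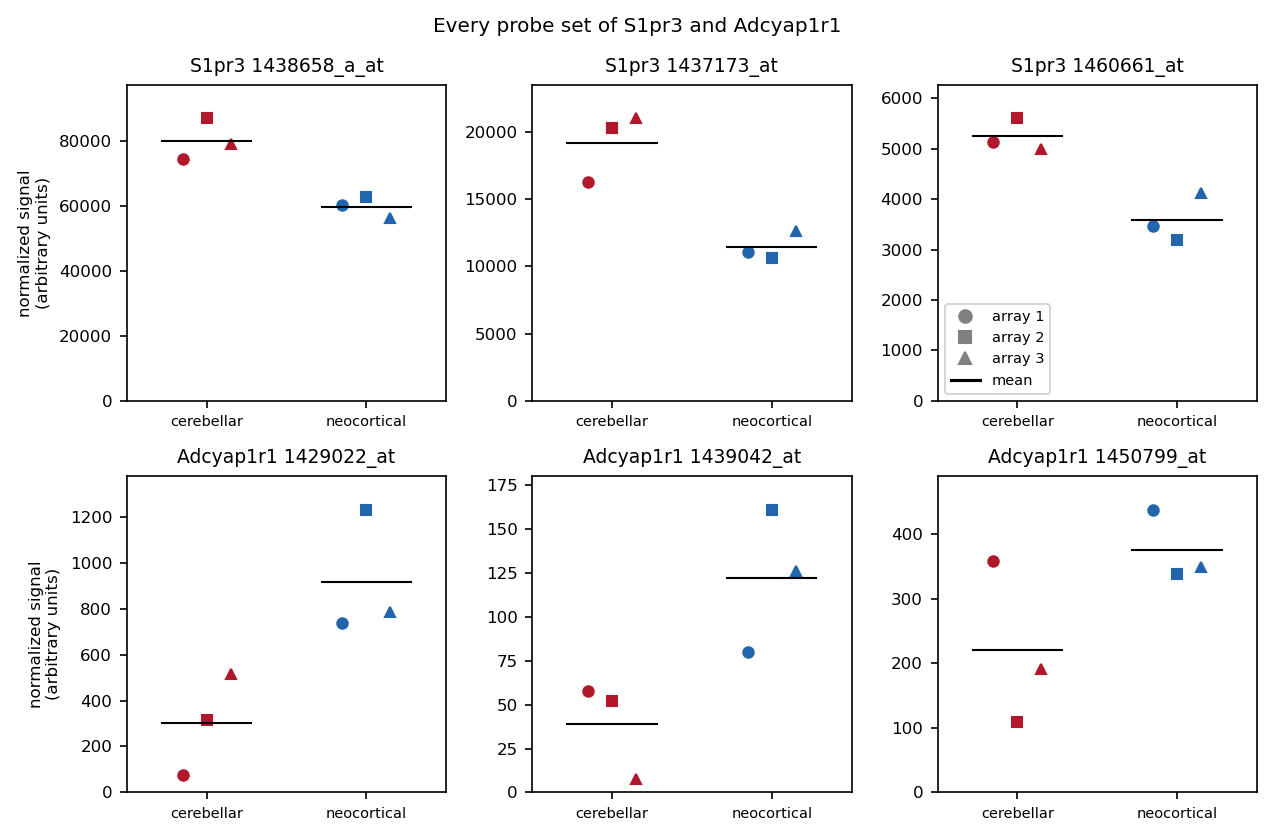
Normalized signal (arbitrary units, linear axes from 0) of every probe set of S1pr3 (top) and Adcyap1r1 (bottom), with a panel per probe set. Points are single arrays with cerebellar astrocytes on the left, and bars are means. The 3 probe sets of S1pr3 are higher in cerebellar astrocytes without overlap, and those of Adcyap1r1 have lower cerebellar means.

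S1pr1, the sphingosine 1-phosphate receptor best known from endothelium, coupled to Gi, read 2317, 2388 and 2051 units in cerebellar and 2446, 2679.6 and 2867 units in neocortical astrocytes. The groups did not overlap, but the difference of -0.24 ± 0.123 (SE) did not pass (adjusted p = 0.252). Summed signal of 8 endothelial markers was 1487 to 3142 units in cerebellar and 2389 to 3282 units in neocortical astrocytes. Pecam1 lay at the floor on all 6 arrays, while Cdh5 averaged 764 ± 631.5 units in cerebellar and 575 ± 111 units in neocortical astrocytes (SD, n = 3 each). Of the 3 endothelial markers tested, Kdr fell to 422 ± 49.9 units in cerebellar, against 1269 ± 324 units in neocortical cells (SD, n = 3 each, adjusted p = 0.00304 from limma), and 2 did not pass. Cldn5, below the filter, read 61.3 to 137 units in cerebellar and 192 to 243 units in neocortical astrocytes without overlap. The part of endothelial cells in the S1pr1 values was not tested.

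Lpar1, a lysophosphatidic acid receptor gene also known from the oligodendrocyte lineage, was measured by 3 probe sets. The brightest read 8792, 13814.5 and 17433 units in cerebellar and 13805, 13102 and 12311 units in neocortical astrocytes. The mean was 13347 ± 4339 units in cerebellar and 13073 ± 747 units in neocortical cells (SD, n = 3 each), while the cerebellar arrays spread more widely. The difference of -0.02 ± 0.209 (SE) has a 95% interval from -0.50 to 0.45, so a change within that range remains compatible with these values. The other probe sets gave -0.02 and -0.06. Of 7 tested oligodendrocyte lineage markers, 2 fell (Olig1 and Olig2), 1 rose (Mbp) and 4 were not past the threshold. The log2 differences of Olig1, Olig2 and Mbp were -1.74, -2.58 and 2.65. The summed signal of 9 markers ran from 54257 to 83621 units in cerebellar and from 74034 to 85899 units in neocortical astrocytes. Cnp made up much of these sums, with 51840 ± 12542 units in cerebellar and 44537 ± 4125 units in neocortical astrocytes (SD, n = 3 each). The part of this lineage in the Lpar1 values was not tested.

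F2r encodes protease-activated receptor 1, the thrombin receptor. Its brightest probe set read 30900.4, 24763 and 20210.1 units in cerebellar and 29457, 30510.3 and 31293 units in neocortical astrocytes. The groups overlapped through cerebellar replicate 1. The difference was -0.29 ± 0.137 (SE, adjusted p = 0.221), and without that array it passed (adjusted p = 0.031). The dimmer probe set read 19669, 9640 and 10637 units in cerebellar and 22267, 23031 and 20984 units in neocortical astrocytes, with no overlap and a difference of -0.81 ± 0.228 (SE, adjusted p = 0.0556), which became 0.0236 with the array number as a block. Both probe sets carry a suffix for probes that can match transcripts of more than 1 gene.

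Cnr1, the CB1 cannabinoid receptor gene, read 441, 342 and 164 units in cerebellar and 322, 660.3 and 312 units in neocortical astrocytes. The groups overlapped, and the difference was -0.47 ± 0.435 (SE, adjusted p = 0.538). The dimmer probe set of Cnr1 lay below the filter. It read 91.4, 114 and 55.25 units in cerebellar and 141, 154 and 206 units in neocortical astrocytes, with no overlap and a difference of -0.93.

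Receptors for the classical amines and acetylcholine were dim. Adra2c, an alpha-2 adrenergic receptor gene, read 215, 158 and 28.6 units in cerebellar and 366, 209 and 459 units in neocortical astrocytes, with 1 cerebellar array at the floor. The difference of -1.35 ± 0.521 (SE) did not pass (adjusted p = 0.138). The further probe sets of Adra2c lay below the filter, with overlap and differences of -0.99, -0.55 and 0.09. Adra1b, an alpha-1 adrenergic receptor gene, lay at the floor on all 6 arrays. Hrh1, the histamine H1 receptor gene, read 184, 179 and 135 units in cerebellar and 285, 289 and 206 units in neocortical astrocytes. These groups did not overlap, and the difference of -0.64 ± 0.334 (SE) had an adjusted p of 0.26. The dimmer probe set of Hrh1, below the filter, overlapped between the groups and had a difference of -0.16. Chrm1, the M1 muscarinic receptor gene, read 352, 331 and 278 units in cerebellar and 378, 190.1 and 389 units in neocortical astrocytes, with the cerebellar values inside the neocortical range. Its difference was 0.07 ± 0.337 (SE, adjusted p = 0.923). The dimmer probe set of Chrm1 lay at the floor on all 6 arrays.

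Of the 4 serotonin receptor genes with a probe set, Htr1b alone was tested. It read 509.7, 309 and 612 units in cerebellar and 208, 398 and 526 units in neocortical astrocytes, with overlap (0.38 ± 0.391, SE, adjusted p = 0.588). The dimmer probe set of Htr1b gave 0.54 and did not pass either. The genes Htr2b, Htr2c and Htr5b lay below the filter, with single-array values of 4.83 to 115 units in cerebellar and 6.07 to 117 units in neocortical astrocytes. Drd1 and Drd2, the dopamine receptor genes, and the muscarinic genes Chrm3 and Chrm4 were faint as well, with values of 17.6 to 182 units in cerebellar and 10.8 to 156 units in neocortical astrocytes.

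Somatostatin and opioid receptors couple to Gi. Sstr2 read 815, 1287 and 747 units in cerebellar and 801, 1172 and 1102 units in neocortical astrocytes, with overlap and a difference of -0.13 ± 0.245 (SE, adjusted p = 0.78). Sstr4 read 413, 302 and 368 units in cerebellar and 167, 264 and 299.9 units in neocortical astrocytes. Its groups did not overlap, by a margin of a few units, and the difference of 0.60 ± 0.316 (SE) did not pass (adjusted p = 0.267). The dimmer probe set of Sstr4, below the filter and mostly under the floor, had a difference of the opposite sign (-0.35). Sstr1 lay at the floor on all 6 arrays. Oprk1, the kappa opioid receptor gene, was below the filter yet did not overlap between the groups, with 275, 305 and 171 units in cerebellar and 30.9, 148 and 113 units in neocortical astrocytes. With no filter on dim probe sets its difference of 1.26 ± 0.424 (SE) did not pass (adjusted p = 0.219), with neocortical array 1 at the floor. The dimmer probe set of Oprk1 overlapped between the groups, with a difference of the opposite sign (-0.17). Oprm1, the mu opioid receptor gene, read 20.05, 192 and 159 units in cerebellar and 96.1, 14.2 and 60.2 units in neocortical astrocytes, and its groups overlapped. Its further probe sets overlapped too, with differences of -0.19, -0.47 and 0.37, against 0.78 for the brightest. All of them lay below the filter.

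Bdkrb2, the constitutive bradykinin receptor gene, was also below the filter. It read 64.4, 23.0 and 93.7 units in cerebellar and 188, 249.8 and 237 units in neocortical astrocytes. No array of either region overlapped the other. All values lay within the range of the bacterial controls, with the neocortical ones above their 95th percentile of 116.2. With no filter, when all 45037 probe sets were tested, the difference of -1.63 ± 0.224 (SE) passed (limma adjusted p = 0.0385), in a fit that called 4.11% of 18193 genes, 2.36% lower. The dimmer probe set of Bdkrb2 had a difference of the opposite sign, at 113, 32.7 and 12.03 units in cerebellar and 55.8, 27.2 and 24.1 units in neocortical astrocytes, with overlap and mostly under the floor. Bdkrb1, the inducible bradykinin receptor gene, read 106 to 293 units in cerebellar and 84.9 to 176 units in neocortical astrocytes and overlapped. Tacr1, the substance P receptor gene, was at the floor on all 6 arrays.

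**Figure D4:**
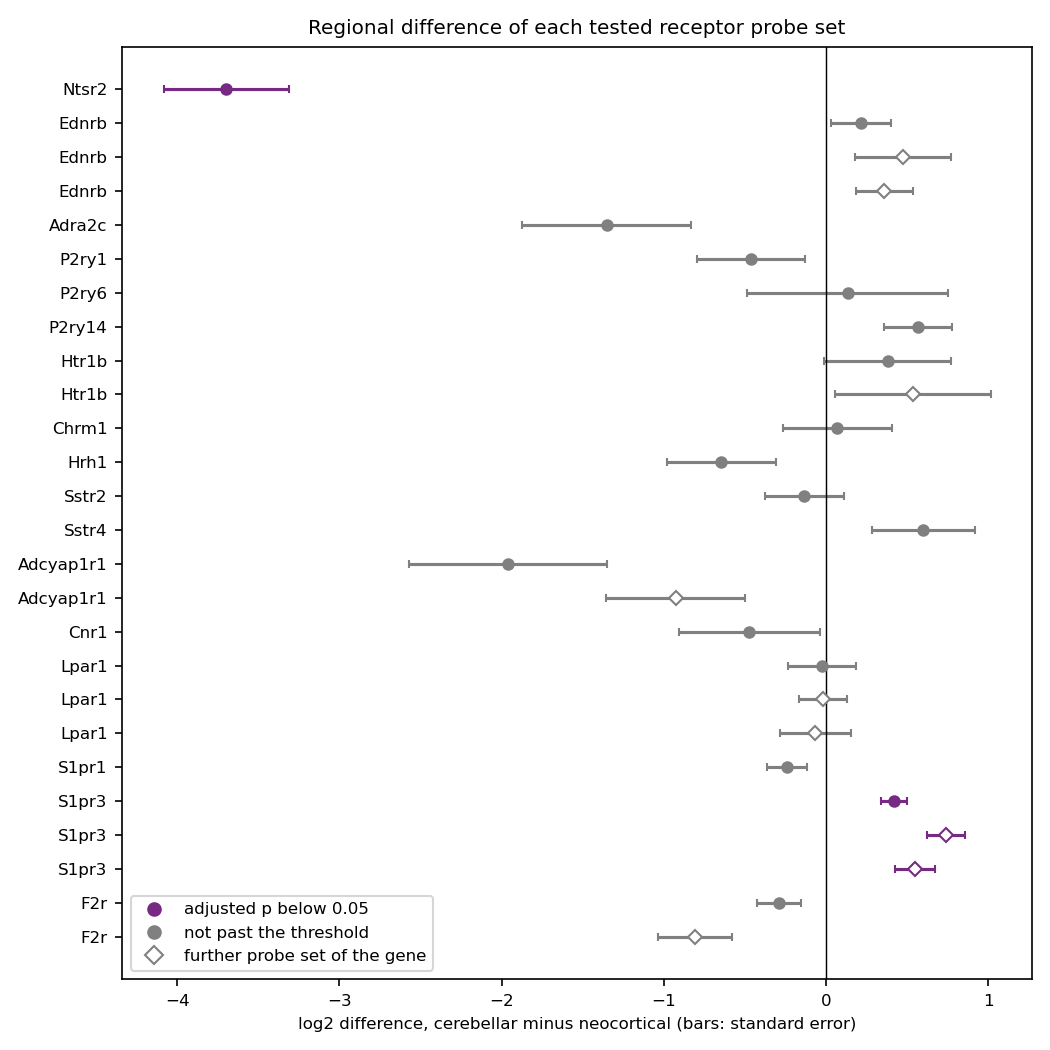
Log2 difference of cerebellar minus neocortical signal for every receptor probe set bright enough to be tested, with standard errors as bars. Filled circles are the brightest probe set of a gene and open diamonds further ones, and purple marks an adjusted p below 0.05. Ntsr2 at -3.70 and the 3 probe sets of S1pr3 at 0.42 to 0.74 are the ones past the threshold.

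The 18 receptor genes below the filter had group means of 8.77 to 250.6 units, all under the highest bacterial control. For 14 of them both means lay under the 95th percentile of the controls, and 3 of them (Adra1b, Tacr1 and Sstr1) lay at the floor on all 6 arrays. The planned fit did not compare these 18 genes at this signal, which does not show that their receptors are absent. Of the 17 tested genes, 14 had both group means above the highest bacterial control. Over all 17 tested genes, replicates varied by a median coefficient of 31.0% in cerebellar and 27.2% in neocortical astrocytes. The standard error of the log2 difference ran from 0.08 to 0.617 with a median of 0.334. S1pr3 and S1pr1 had the smallest standard errors, and P2ry6 and Adcyap1r1 the largest.

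Grouped by the G protein that each receptor is best known to use, 6 of 19 Gq-coupled, 7 of 15 Gi-coupled and 1 of 7 Gs-coupled genes were tested. Among the 6 Gq-coupled genes, Ntsr2 was lower and 5 did not pass. None of the 7 Gi-coupled genes passed, with or without the array number as a block. With 12.8% of all genes tested called in the planned fit and 14.8% with the block, groups of this size are too small for these counts to set them apart. The Gs-coupled gene tested was Adcyap1r1. A further 3 of 4 genes with several or unsettled partners were tested, of which S1pr3 was higher.

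Receptors of the same families outside the list, 41 genes fixed by family, were examined beside them. Of the 34 with a probe set, 13 were tested, 2 were higher and 1 was lower in cerebellar astrocytes, and 10 did not pass. Over all 12615 genes tested 5.37% were higher and 7.39% lower, 12.8% in all, and the counts of the lists that follow stand beside the same shares. The lysophosphatidic acid receptor genes Lpar4 and Lpar6 were the higher ones. Lpar4 had 6485 ± 343 units in cerebellar and 3065 ± 270.1 units in neocortical astrocytes (SD, n = 3 each), a 2.12-fold difference (limma adjusted p = 0.000533), with 2 of 3 probe sets past the threshold. Lpar6 differed by 0.50 ± 0.122 (SE, adjusted p = 0.0328). It lost its call under 7 of 17 alternatives, among them without cerebellar replicate 1 (0.0628) or neocortical replicate 1 (0.105), 2 (0.111) or 3 (0.097). Lpar1, in the list, thus stood at -0.02 while Lpar4 stood at 1.08, a contrast between genes that was not itself tested.

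Genes that make, cleave or remove the ligands were taken as 41 genes, 26 of them tested, with 2 higher, 4 lower and 20 not past the threshold, where 12.8% of all genes tested were called. Mme encodes neprilysin, a peptidase that cleaves neurotensin, tachykinins and endothelins, and it was 2.1-fold higher in cerebellar astrocytes (11084 ± 2452 in cerebellar against 5212 ± 396 units in neocortical astrocytes, with SD over n = 3 each and a limma adjusted p of 0.00308), with 1 of 2 probe sets past the threshold. Mgll, the lipase that degrades the cannabinoid 2-arachidonoylglycerol, was 2.6-fold lower (1596 ± 229.7 in cerebellar against 4123 ± 259.7 units in neocortical astrocytes, with SD over n = 3 each and a limma adjusted p of 0.000591), with all 3 tested probe sets lower. Adk, the adenosine kinase that clears adenosine, was 2.08-fold lower (8710.3 ± 1919.9 in cerebellar against 17891 ± 1925 units in neocortical astrocytes, with SD over n = 3 each and a limma adjusted p of 0.00454), and 2 of its 5 tested probe sets passed. Edn1, given above, was the other higher gene, and Plpp1 and Plpp3, lipid phosphatase genes named after their values were seen, were also lower. With the array number as a block 3 were higher, Maoa being added (adjusted p = 0.0375 against 0.0886 without it), in a fit that called 14.8% of all genes tested. Mme lost its call with no filter (adjusted p = 0.0545). Adk lost its call with no filter (0.0706) and with its probe sets averaged (0.158), where its log2 difference was -0.50.

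Downstream of the receptors, 12 of 13 G protein alpha subunit genes were tested, with none higher, 2 lower and 10 not past the threshold, where 7.39% of all genes tested were lower. Gnao1 encodes the Go alpha subunit abundant in brain. Of 2 tested probe sets, 1 passed. It fell to 972 ± 204 units in cerebellar, against 3652 ± 252 units in neocortical astrocytes (SD, n = 3 each), with a log2 difference of -1.93 ± 0.165 (SE, limma adjusted p = 0.000249). Gna14, of the Gq family, had 847 ± 23.6 units in cerebellar and 2213 ± 275 units in neocortical astrocytes (SD, n = 3 each), with a log2 difference of -1.38 ± 0.147 (SE, limma adjusted p = 0.000755). The main Gq subunit genes Gnaq and Gna11, named after their values were seen, differed by 0.07 ± 0.0866 and 0.08 ± 0.106 (SE) and did not pass.

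Of 14 tested phospholipase C and diacylglycerol effector genes, 2 were higher, 2 were lower and 10 did not pass, where 12.8% of all genes tested were called. Plcb4, a phospholipase C that acts downstream of Gq, was 2.37-fold higher in cerebellar astrocytes (6744 ± 935 in cerebellar against 2833 ± 91.2 units in neocortical astrocytes, with SD over n = 3 each and a limma adjusted p of 0.000469), with all 4 tested probe sets higher. Dgka, a diacylglycerol kinase gene, was 1.51-fold higher, and Prkce, a protein kinase C gene, and Inpp5a, an inositol phosphatase gene, were 2.53-fold and 1.45-fold lower. Prkce passed with 1 of 3 tested probe sets. These 3 calls were lost under 8 or 9 of 17 alternatives each, among them without any 1 of the neocortical arrays (adjusted p from 0.0648 to 0.158), without any 1 of the cerebellar arrays for Dgka (up to 0.0838), without cerebellar replicate 2 for Prkce (0.0735) and without cerebellar replicate 1 (0.081) or 3 (0.0717) for Inpp5a. With the array number as a block Plcd4 passed too (adjusted p = 0.0297 against 0.0712), so 3 were lower, where 14.8% of all genes tested were called. Of 6 tested receptor kinase and arrestin genes, Arrb1, for beta-arrestin 1, was 1.93-fold higher (adjusted p = 0.0127) and Grk3, a receptor kinase gene, 1.43-fold lower (adjusted p = 0.0174), while 4 did not pass, where 12.8% of all genes tested were called. Arrb1 lost its call without neocortical replicate 1 (0.055) or 3 (0.0585), and Grk3 without neocortical replicate 1 (0.0874), 2 (0.0514) or 3 (0.0616).

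**Figure D5:**
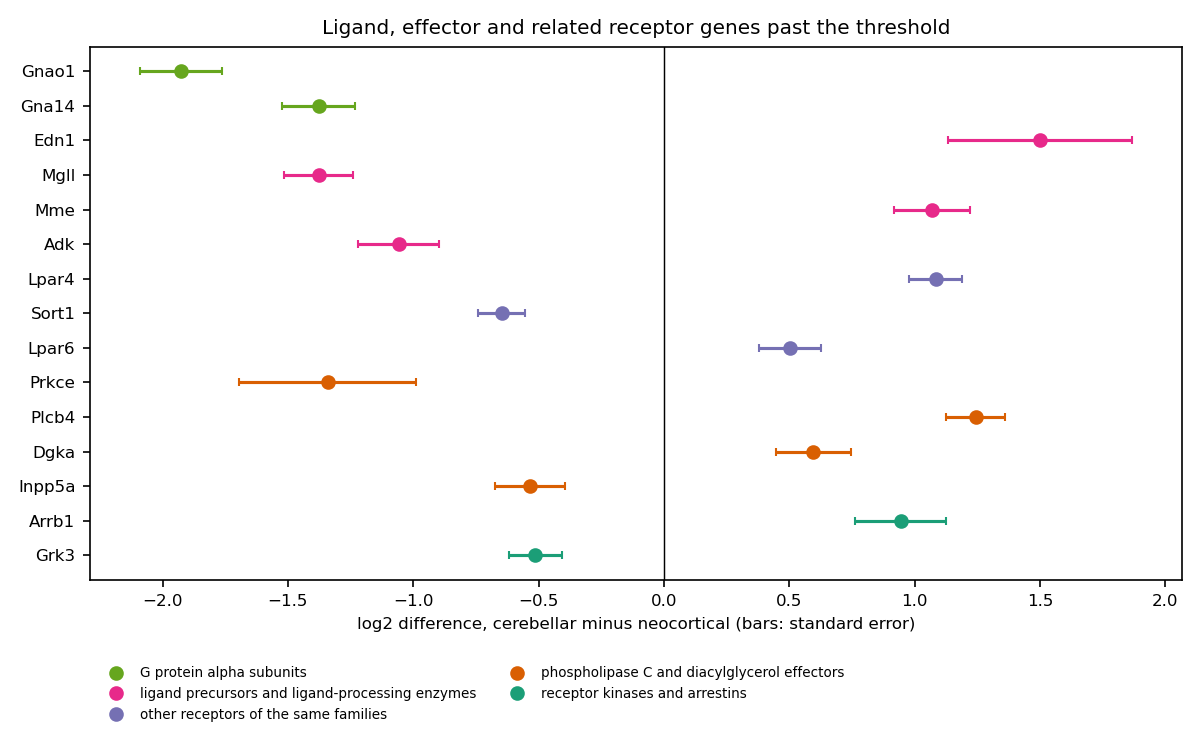
Log2 difference of cerebellar minus neocortical signal, with standard errors as bars, for the 15 genes of 5 related lists that passed the threshold, up to 4 a list and ranked by size. Colours mark the lists. Gnao1 at -1.93 and Edn1, 2.83-fold higher, stand at the ends.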

How the data were processed

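The authors deposited 1 linear intensity per probe set and array for 45101 probe sets, 64 of them controls. The sources used here do not describe how they were summarised or scaled. The 2% trimmed mean was 1500.0 for each of the arrays, so they carry a common scaling already. Array medians still ran from 284.7 to 361.2 and differed by more than 10%. Quantile normalization was therefore applied to the 45037 probe sets that were not controls, signal below the 20th percentile (62.2) was raised to that value, and the log2 scale was used. The 27022 probe sets at or above the 40th percentile of the mean entered a limma fit (version 3.58.1, R 4.3.3) with moderated variances that followed a trend, two-sided, with Benjamini-Hochberg adjustment. The script was tested on simulated data. The number of arrays, 3 per group, limits the precision.

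The annotation gave 1 symbol for 34945 probe sets, several for 932 and none for 9160, and symbols were updated by Entrez ID through the GRCm38.p6 gene table for 34741 of them. Same-numbered arrays of the 2 groups deviated together weakly (correlations of 0.18, 0.188 and 0.101, against -0.182 to 0.0225 for other pairs). The labels number the arrays and do not say that the numbers pair them. Pairing by number was an assumption of the block, which was an alternative. The planned fit had no block.

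Every tested receptor was named, and in related lists up to 4 genes past the threshold by size. Members and lists were chosen with earlier results of these data known. The alternatives changed the normalization, floor, filter, variance model, probe set rule and replicate block, or left out 1 array. Figures were drawn with matplotlib 3.10.9.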

Additional observations from a re-analysis of the deposited data

How the results depend on the processing

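Ntsr2 kept its direction and its call under all 16 alternatives that gave a value. It has no value when probe sets with a suffix are left out. S1pr3 kept its direction under 17 alternatives and its call under 12. Probe sets past the threshold numbered 2864, and 1281 with no filter, 1590 without a variance trend, and 1213 to 2775 with 1 array left out. The count of receptors higher in cerebellar astrocytes was 1 as planned, 0 with arrays scaled by the median, with no filter and without a variance trend, and 0 to 1 with 1 array left out. The count lower was 1 as planned, 2 with median scaling, with the floor at the 40th percentile, with no filter, with the replicate block and with a gene's probe sets averaged, 0 with suffixed probe sets left out, and 1 to 3 with 1 array left out. The added receptor was Bdkrb2 with no filter and Adcyap1r1 in the other settings with 2. Without neocortical replicate 1, 2 or 3 the probe sets past the threshold were 1326, 1385 and 1213. Signs turned only when 1 array was left out, for receptors not past the threshold: the log2 difference of P2ry6 ran from -0.32 to 0.77, Chrm1 from -0.27 to 0.25, Sstr2 from -0.37 to 0.0188 and Lpar1 from -0.24 to 0.25. Values as deposited put 1586 probe sets higher and 1447 lower in cerebellar astrocytes, median scaling 819 and 2105, against 1319 and 1545 as planned, and median scaling moved the median of all probe sets to -0.10 from 0.01. Alternatives for the ligand and effector genes were added after seeing the data. The causes of these changes were not tested. Signal near the bacterial controls limits what can be said of the faint receptors.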
